A study of Mus musculus with 18 samples.

Results

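The response of Bat3-deficient dendritic cells to lipopolysaccharide (LPS) was measured by RNA sequencing in 6 of the 18 libraries of the series: 3 libraries of cells given LPS and 3 of cells left in medium. All libraries titled as Bat3 cKO with LPS or with medium were used, and all listed genes. The cells were grown from C57BL/6 mouse bone marrow in GM-CSF (20 ng/ml, with cultures replated at day 9), treated for 8 h, and sorted as live cells with high CD11c. The conditional knockout (cKO) carried the genotype Bat3 fl/fl CD11c Cre, so in both cKO groups Bat3 was deleted only in cells in which the CD11c promoter had driven Cre. C57BL/6 wild type (WT) cells with LPS and WT cells in medium, 3 libraries each, served to show where the response of cKO cells differed. The remaining 6 libraries, WT cells given IL10 and TGF-β with or without LPS, entered the fit to estimate the spread and are not described.

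LPS, a component of the outer membrane of Gram-negative bacteria, is bound by CD14 and by TLR4 with its co-receptor MD-2. TLR4 signals through the adaptors MyD88 and TRIF. The MyD88 arm activates NF-kB and MAP kinases and with them cytokine genes, and the TRIF arm adds type I interferon, which acts back on the cells to induce interferon-stimulated genes. In dendritic cells this signalling is known to raise costimulatory molecules and CCR7, to lower uptake receptors, to stop proliferation and to turn metabolism to glycolysis. Bag6, formerly Bat3, encodes a cytosolic chaperone that hands tail-anchored proteins to the insertion machinery and faulty polypeptides to the proteasome.

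Bag6 had 11.3, 10.4 and 6.31 CPM in cKO LPS, against 4.81, 7.31 and 4.56 CPM in cKO medium (log2 fold change 0.76 ± 0.19, adjusted p = 0.0018). CPM is the count scaled by library size with TMM factors, and ± gives the standard error of a log2 fold change. The cKO groups overlapped. WT cells had 24.2, 23.2 and 24.7 CPM in WT LPS, against 22.8, 24.6 and 23.1 CPM in WT medium, so each cKO library lay below each WT library. Reads outside the deleted exons are counted too, and the counts do not separate the remaining transcript from cells that escaped deletion. The call of the LPS difference was lost on the TPM scale (0.15, adjusted p = 0.42) and when replicate 1 of cKO LPS and of cKO medium was left out (0.50, adjusted p = 0.071).

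The 6 cKO libraries held 8056831 to 9840237 expected counts each. In a principal component analysis of these libraries, the first component (83.8% of the variance) separated LPS from medium, and the second (4.83%) separated the first replicate of both groups from the others. Sex-linked genes set the same 2 libraries apart: Xist, expressed from the inactive X, stood at 1014 CPM in cKO LPS and 526 CPM in cKO medium. In the other 4 it did not exceed 1.12 CPM. Ddx3y, on the Y chromosome, had 0.424 CPM in the first replicate of cKO LPS and 0.181 CPM in that of cKO medium. In the other 4 it had at least 35.1 CPM. The first replicates thus had a female pattern and the other cKO libraries a male one. The WT LPS and WT medium libraries had the male pattern (Xist up to 0.515 CPM, Ddx3y at least 40.96 CPM). Counts of lists are therefore also given without the first replicates, except where they were the same or differed by 1 gene in either direction. Ribosomal precursor RNA (Rn45s) took 5.38% to 6.15% of counts in cKO LPS, against 1.28% to 4.01% in cKO medium. The differing sex patterns mean that the cKO cells came from more than 1 animal. Whether each library stems from a separate animal or culture is not stated, so p-values measure the spread among these libraries.

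Of 11876 genes tested, 3476 (29.3%) were higher in cKO LPS than in cKO medium and 4138 (34.8%) were lower, at a Benjamini-Hochberg adjusted p under 0.05. Changes of at least 2-fold were seen for 1699 higher genes (14.3%) and 2153 lower genes (18.1%). The split depended on the scaling: 3739 were higher and 3811 lower with RLE factors, 2899 and 4955 with upper-quartile factors, and 1903 and 6894 on the TPM scale. The median of all genes was -0.09 in log2 here, -0.25 with upper-quartile factors and -0.47 on the TPM scale, so small changes of sign are relative to these medians. Without the first replicates 3086 were higher and 3696 lower. The cKO LPS and cKO medium libraries did not overlap for 7972 of the 11876 genes tested and for 7282 of the 7614 called. A lack of overlap, given below for single genes, was thus usual for a called gene.

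**Figure D1:**
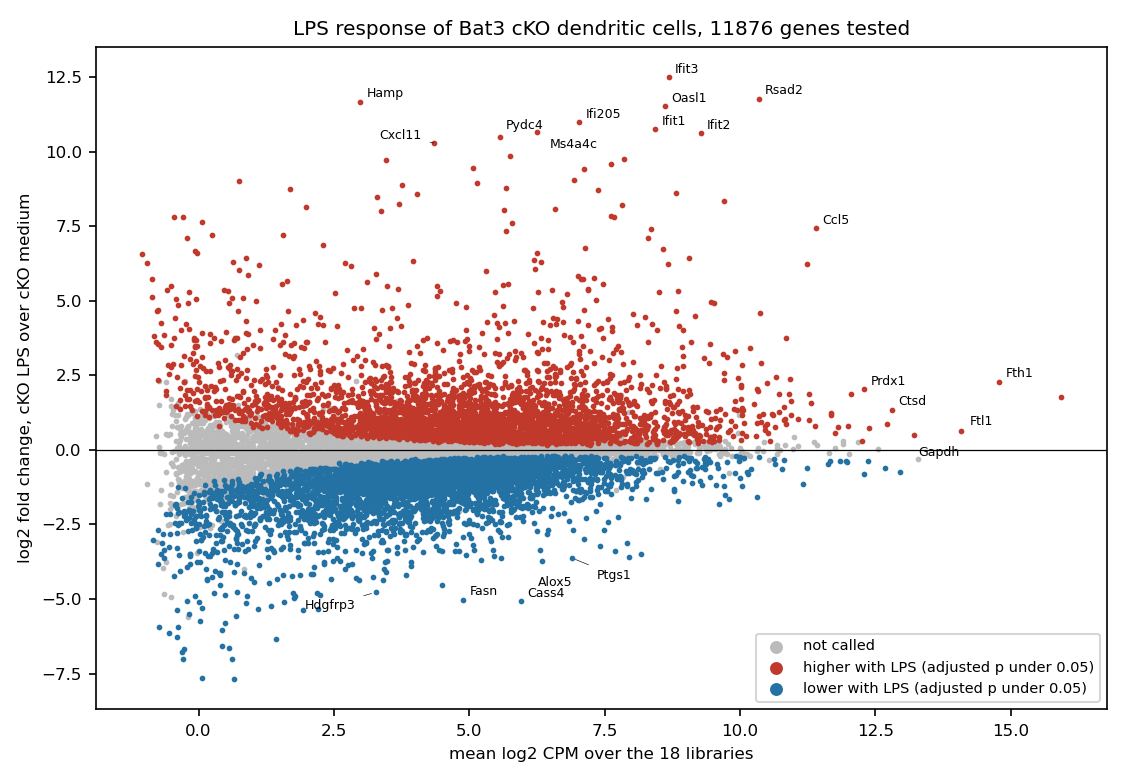
Log2 fold change of cKO LPS over cKO medium for 11876 genes (vertical axis) against mean log2 CPM over the 18 libraries (horizontal axis); each point is a gene, red higher and blue lower at an adjusted p under 0.05. Interferon-stimulated genes such as Ifit3 and Rsad2 stand at the top, and Cass4, Fasn and Hdgfrp3 are labelled at the bottom.

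The 10 largest rises, among called genes averaging 3 or more in log2 CPM and without overlapping groups, were mostly in interferon-stimulated genes. Rsad2, which encodes viperin, had 4408, 4843 and 4628 CPM in cKO LPS, against 1.36, 0.577 and 1.96 CPM in cKO medium (log2 fold change 11.78 ± 0.72, adjusted p = 1e-08). Oasl1, of the oligoadenylate synthetase family, had 1076, 1209 and 1143 CPM in cKO LPS, against 0.363, 0.192 and 0.559 CPM in cKO medium (log2 fold change 11.53 ± 0.51, adjusted p = 1.1e-10). Ifit2, which binds viral RNA complexes, had 1804, 1981 and 2037 CPM in cKO LPS, against 1.27, 1.35 and 1.02 CPM in cKO medium (log2 fold change 10.63 ± 0.57, adjusted p = 2e-09). Every LPS library of these genes lay above every medium library, which the rule required. Ifit1, of the same family, was 1779-fold higher in mean CPM.

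Ifit3 had 23009 counts over the LPS libraries and 6 over the medium libraries, and may share reads with its near-identical copy. Ifi205, of the interferon-inducible HIN-200 family, had 8163 and 6. Hamp, the gene of hepcidin, which blocks iron export, had 814 counts in cKO LPS and 0 in cKO medium, at least 437-fold higher against a floor of 3 counts over the group. Ms4a4c, of the membrane-spanning 4A family, had 3449 and 3 counts, a ratio of 1849.6 (95% interval 632 to 8973, exact, counting error only). Pydc4 had 2130 and 2 counts, a ratio of 1713 (474 to 14157). The chemokine gene Cxcl11, whose product binds CXCR3, had 1872 and 2 counts, a ratio of 1506 (416 to 12444).

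The 10 largest falls, by the same rule, included genes of lipid synthesis, eicosanoid synthesis and amino acid transport. Fasn, the fatty acid synthase gene, had 0.849, 2.03 and 0.769 CPM in cKO LPS, against 31.03, 46.3 and 40.9 CPM in cKO medium (log2 fold change -5.02 ± 0.29, adjusted p = 1.3e-11). Cass4, a scaffold of focal adhesions, had 6.79, 5.61 and 3.69 CPM in cKO LPS, against 194, 193 and 155 CPM in cKO medium (log2 fold change -5.06 ± 0.41, adjusted p = 9.6e-08). Alox5, the 5-lipoxygenase that starts leukotriene synthesis, had 8.77, 12.2 and 9.23 CPM in cKO LPS, against 138, 145 and 112 CPM in cKO medium (log2 fold change -3.71 ± 0.20, adjusted p = 2.2e-11). None of these overlapped, which the rule required. Ptgs1, the constitutive cyclooxygenase, was 12.3-fold lower in mean CPM, and the glutamine transporter gene Slc1a5 12.95-fold. Hdgfrp3, Aatk, Dkc1 (dyskerin of the pseudouridylation complex), Atad3a (a mitochondrial ATPase) and Chn2 (a Rac-regulating chimaerin) fell (log2 fold change -4.77, -3.98, -3.90, -3.76 and -3.72).

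Among genes of LPS sensing, the receptor gene itself fell while several co-receptor and adaptor genes rose. Tlr4 had 85.9, 84.8 and 85.4 CPM in cKO LPS, against 226, 208 and 169 CPM in cKO medium (log2 fold change -1.24 ± 0.11, adjusted p = 4.8e-09), and the libraries of each group did not overlap. Cd14, which delivers LPS to TLR4, had 1903, 2009.8 and 1960.3 CPM in cKO LPS, against 834, 725 and 686 CPM in cKO medium (log2 fold change 1.39 ± 0.15, adjusted p = 9.7e-08). The adaptor gene Ticam1 (TRIF) was at 76.6 ± 4.15 CPM in cKO LPS, against 22.4 ± 5.32 CPM in cKO medium (SD, n = 3 each) and its bridging adaptor Ticam2 (TRAM) at 118 ± 11.01 CPM in cKO LPS, against 39.6 ± 3.51 CPM in cKO medium. The kinase-like gene Irak2 (log2 fold change 2.30 ± 0.16, adjusted p = 1.6e-10) and the ubiquitin ligase gene Traf6 (log2 fold change 2.18 ± 0.12, adjusted p = 1.5e-12) also rose. Of 23 genes of the LPS receptor and signalling list, 17 rose and 4 fell, with a median log2 fold change of 1.24, and without the first replicates 15 rose and 3 fell. Besides Tlr4, the kinase gene Irak4 (log2 -0.92), the adaptor gene Tirap (-0.44) and Tlr2 (-0.35) fell, and the endosomal RNA receptor gene Tlr3 rose by 3.36.

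All 34 tested members of the type I interferon-stimulated list rose, with a median log2 fold change of 5.57 (range 1.00 to 12.50), with and without the first replicates. Their summed level was 22702 to 23973 CPM in cKO LPS, against 497 to 541 CPM in cKO medium. Isg15, a ubiquitin-like modifier, had 507, 544 and 529.8 CPM in cKO LPS, against 3.18, 1.54 and 2.05 CPM in cKO medium (log2 fold change 7.85 ± 0.24, adjusted p = 2.7e-15). Oas3, an enzyme of the 2-5A pathway that activates RNase L, had 802, 762 and 792 CPM in cKO LPS, against 11.5, 9.43 and 9.96 CPM in cKO medium (log2 fold change 6.25 ± 0.16, adjusted p = 1e-17). Zbp1, a sensor of Z-form nucleic acids, had 248, 276 and 261 CPM in cKO LPS, against 12.5, 13.3 and 13.7 CPM in cKO medium (log2 fold change 4.31 ± 0.11, adjusted p = 9.8e-18). Oasl2 was 391.8-fold and Rtp4 715-fold higher. Transcription factor genes of the pathway rose too, with Irf7 at 8.35, Stat2 at 4.39 and Irf9 at 2.75 in log2. Ifnb1, the interferon-beta gene, was listed but had too few counts to be tested.

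The promoters of genes of this kind hold the interferon-stimulated response element, a pair of GAAA repeats, and these windows are shown because the list moved as a whole. Sequences are from RefSeq for GRCm38.p6, covering the 250 bases before each start, and 80.5% of tested genes had one. The core searched was AAANNGAAA on both strands, and 15 of the 24 interferon-stimulated genes with a window held it (62.5%), against 10.8% of all 27025 genes with a window. Of tested genes that rose at least 2-fold 13.0% held it, against 7.79% of those that fell at least 2-fold. Capitals mark the core in the windows below, read 5′ to 3′ on the gene's strand. They lie at chr19:34583353-34583401 (plus strand), chr19:34640765-34640813 (plus strand), chr12:26456544-26456592 (minus strand), chr5:114923043-114923091 (plus strand), chr4:156200867-156200915 (minus strand) and chr5:120777705-120777753 (minus strand). Several promoters hold more than 1 core, and only the one farthest from the start is in capitals. In Isg15 the first bases of 3 overlapping cores lie 77, 71 and 65 bases before the start. There are 2 cores each in Ifit3 (156 and 122 bases), Ifit1 (104 and 85), Rsad2 (120 and 107) and Oasl1 (177 and 156), and 1 in Oas3 (74).
Ifit3: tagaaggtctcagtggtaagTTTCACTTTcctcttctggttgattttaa
Ifit1: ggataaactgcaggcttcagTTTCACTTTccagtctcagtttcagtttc
Rsad2: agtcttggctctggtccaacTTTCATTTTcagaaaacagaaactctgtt
Oasl1: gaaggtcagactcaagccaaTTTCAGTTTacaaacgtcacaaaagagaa
Isg15: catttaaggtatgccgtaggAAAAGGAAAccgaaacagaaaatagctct
Oas3: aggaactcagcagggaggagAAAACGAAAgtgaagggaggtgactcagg
The core in capitals is the reverse complement, in which GAAA reads TTTC, in Ifit3, Ifit1, Rsad2 and Oasl1, and is in the gene's own direction in Isg15 and Oas3. The second core of Rsad2 and of Oasl1 is in the gene's own direction.

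Of 21 genes of the NF-kB pathway and its feedback, 17 rose and 1 fell, with a median log2 fold change of 1.28. Nfkbia, the inhibitor that NF-kB induces against itself, had 2463, 2407 and 2312 CPM in cKO LPS, against 1271, 1112 and 1422 CPM in cKO medium (log2 fold change 0.92 ± 0.11, adjusted p = 4.8e-07). Nfkb2 had 236, 257 and 236 CPM in cKO LPS, against 76.6, 87.5 and 70.9 CPM in cKO medium (log2 fold change 1.63 ± 0.11, adjusted p = 6.3e-11), and the RNA-decaying regulator Zc3h12a (Regnase-1) had 44.6, 41.9 and 42.3 CPM in cKO LPS, against 9.35, 10.5 and 10.99 CPM in cKO medium (log2 fold change 2.06 ± 0.14, adjusted p = 8.9e-11). Tnfaip3, the deubiquitinase A20, had 364, 336 and 324 CPM in cKO LPS, against 199.6, 244 and 191 CPM in cKO medium (log2 fold change 0.69 ± 0.13, adjusted p = 8.3e-05), a call lost on the TPM scale (0.17, adjusted p = 0.28). Nfkbib, a further inhibitor, and the A20-binding Tnip1 rose by 2.26 and 1.38. Tnip3 fell by 0.93.

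The NF-kB motif searched was GGANTTTCC on both strands. It stood in 5 of the 18 promoter windows of this list (27.8%), against 1.25% of all 27025 genes, 2.40% of genes that rose at least 2-fold and 1.05% of those that fell. The windows, shown because they belong to named members and to Il6 and Icam1, lie at chr12:55492797-55492845 (minus strand), chr12:55492648-55492696 (minus strand), chr19:46305686-46305734 (plus strand), chr10:19015411-19015454 (minus strand), chr5:30013051-30013099 (plus strand) and chr9:21015767-21015815 (plus strand). Capitals mark the motif or its reverse complement. Other named genes held it in windows not shown, among them Dusp6, Birc5 and Anxa1, which fell, and Cxcl10, Irg1 and Isg15, which rose.
Nfkbia distal: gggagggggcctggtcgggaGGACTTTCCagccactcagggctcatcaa
Nfkbia proximal: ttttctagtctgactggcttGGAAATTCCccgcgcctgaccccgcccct
Nfkb2: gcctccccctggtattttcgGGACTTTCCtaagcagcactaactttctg
Tnfaip3: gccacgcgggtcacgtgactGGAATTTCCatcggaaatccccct
Il6: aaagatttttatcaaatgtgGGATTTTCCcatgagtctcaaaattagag
Icam1: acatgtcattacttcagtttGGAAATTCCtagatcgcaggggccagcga
These matches describe the letters in the window and nothing about the factor that binds there.

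The cytokine genes of dendritic cell activation were raised. Of 18 proinflammatory cytokine genes 16 rose and 1 fell, with a median log2 fold change of 2.87. Il12b, the subunit shared by IL-12 and IL-23, had 751, 880.1 and 763 CPM in cKO LPS, against 0.907, 0.7697 and 1.397 CPM in cKO medium (log2 fold change 9.59 ± 1.16, adjusted p = 1e-05). Il6 had 204, 195 and 183 CPM in cKO LPS, against 16.5, 23.8 and 20.6 CPM in cKO medium (log2 fold change 3.26 ± 0.18, adjusted p = 1.3e-11). Tnf had 266, 191 and 174 CPM in cKO LPS, against 38.7, 53.6 and 38.5 CPM in cKO medium (log2 fold change 2.27 ± 0.16, adjusted p = 2.8e-10). No LPS library of these 3 genes overlapped a medium library. Il12a (log2 fold change 5.50 ± 0.35, adjusted p = 1.1e-10), the other IL-12 subunit, and Il27 (log2 fold change 4.60 ± 0.37, adjusted p = 8.6e-10) rose by more than 4 on the log2 scale, and Il23a by 3.90 ± 0.46. Il1b, which needs an inflammasome to mature, had 3199.6, 3542 and 3567 CPM in cKO LPS, against 865, 1059 and 878 CPM in cKO medium (log2 fold change 1.88 ± 0.17, adjusted p = 9.1e-09). The 4-1BB ligand gene Tnfsf9 was 11.4-fold and the IL-6 family member Osm 3.62-fold higher.

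Chemokine genes divided. Of 18 tested, 10 rose and 1 fell, with a median log2 fold change of 1.12, and without the first replicates 8 rose and 0 fell. Ccl5, which attracts T cells, had 9268, 9379 and 9524 CPM in cKO LPS, against 80.9, 32.9 and 47.8 CPM in cKO medium (log2 fold change 7.44 ± 1.62, adjusted p = 0.0013). Cxcl10 had 519, 717 and 626 CPM in cKO LPS, against 0.907, 2.598 and 0.931 CPM in cKO medium (log2 fold change 8.71 ± 0.43, adjusted p = 3.2e-10). Cxcl16 had 1113, 1218 and 1128 CPM in cKO LPS, against 105, 94.1 and 116 CPM in cKO medium (log2 fold change 3.46 ± 0.23, adjusted p = 1.4e-09). Every LPS library of these 3 genes lay above every medium library. The macrophage inflammatory protein genes rose less, Ccl3 to 988 ± 71.9 CPM in cKO LPS, against 319.8 ± 5.78 CPM in cKO medium and Ccl4 to 399 ± 27.6 CPM in cKO LPS, against 210.3 ± 12.3 CPM in cKO medium (SD, n = 3 each). Among those that did not pass were Ccl2 at -0.30, Ccl7 at -0.83, Cxcl1 at 0.48 and Cxcl2 at 0.28 in log2. Ccl6 fell by 0.38.

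**Figure D2:**
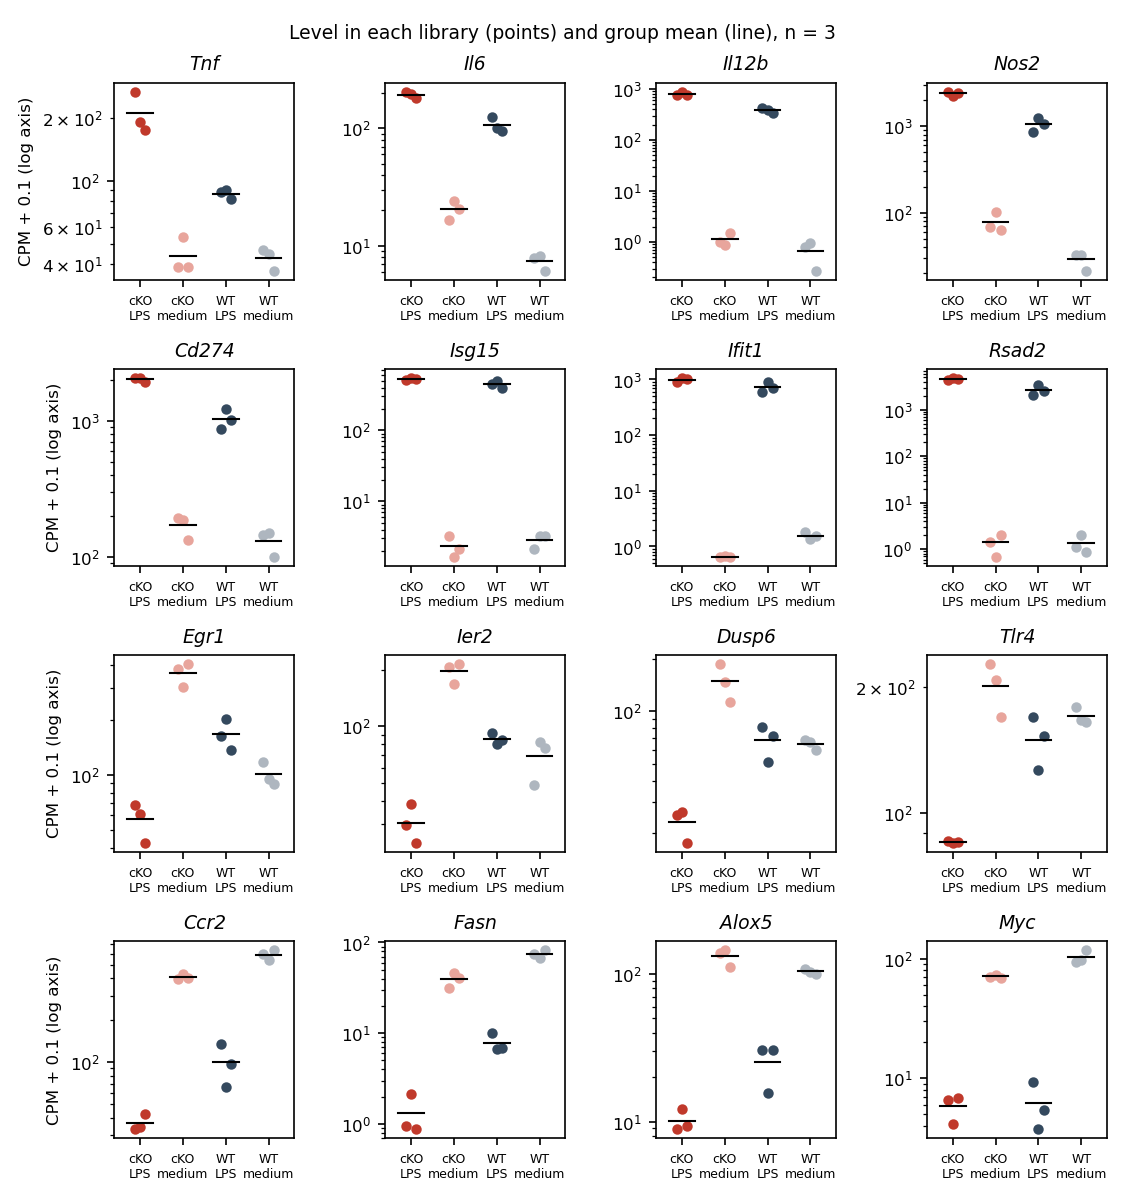
Level of 16 genes in each library (CPM + 0.1 on a log axis; points are libraries, lines are group means, n = 3 per group), with cKO LPS and cKO medium on the left of each panel and WT LPS and WT medium on the right. Egr1, Ier2, Dusp6 and Tlr4 are lower in the cKO LPS libraries than in those of the other groups, and Tnf is highest there. Isg15, Ifit1 and Rsad2 lie between 0.544 and 3.18 CPM in the medium libraries of both genotypes.

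Immediate-early genes, which early signalling switches on for a short time, moved in both directions at 8 h. Of 20 immediate-early and AP-1 genes 11 rose and 5 fell, with a median log2 fold change of 0.97, and without the first replicates 10 rose and 5 fell. Atf3, a repressor induced by TLR signals, had 1779, 1676 and 1901 CPM in cKO LPS, against 125, 161 and 150.1 CPM in cKO medium (log2 fold change 3.62 ± 0.17, adjusted p = 1.1e-12). Junb had 2287, 2423 and 2311 CPM in cKO LPS, against 976, 792 and 983 CPM in cKO medium (log2 fold change 1.35 ± 0.10, adjusted p = 4.3e-10). Against these, Egr1, a zinc finger factor of the early response, had 68.03, 61.3 and 42.1 CPM in cKO LPS, against 380.03, 306 and 406 CPM in cKO medium (log2 fold change -2.67 ± 0.19, adjusted p = 7.2e-10). Ier2 had 29.6, 38.4 and 23.7 CPM in cKO LPS, against 207, 169 and 214 CPM in cKO medium (log2 fold change -2.69 ± 0.20, adjusted p = 2.4e-09). The groups did not overlap for any of these 4 genes. Egr2 fell by 1.81 on the log2 scale, and Fosb was at -0.25 ± 0.34 with overlapping libraries. Of 9 MAP kinase phosphatase genes, 6 rose and 3 fell. Dusp6, which removes phosphate from ERK, had 25.3, 26.3 and 17.4 CPM in cKO LPS, against 185, 147 and 112 CPM in cKO medium (log2 fold change -2.69 ± 0.19, adjusted p = 9.4e-10), while Dusp1, which acts on p38 and JNK, had 826, 724 and 634 CPM in cKO LPS, against 332, 254 and 292 CPM in cKO medium (log2 fold change 1.31 ± 0.15, adjusted p = 2.2e-07). Dusp4 rose by 2.81, and Dusp2 had 71 counts in cKO LPS and 3 in cKO medium, a ratio of 38.1 (12.5 to 189).

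Genes of feedback on cytokine signalling mostly rose. Of 20 genes of the SOCS and IL-10/STAT3 feedback list 17 rose and 0 fell, with a median log2 fold change of 1.18, and without the first replicates 15 rose and 0 fell. Socs3, which blocks receptors that use STAT3, had 818, 757 and 801 CPM in cKO LPS, against 189.7, 201 and 184 CPM in cKO medium (log2 fold change 2.05 ± 0.15, adjusted p = 5.1e-10). Socs1 had 116, 103 and 107 CPM in cKO LPS, against 14.9, 12.7 and 14.8 CPM in cKO medium (log2 fold change 2.94 ± 0.18, adjusted p = 2.8e-11). Tnfrsf1b, a TNF receptor, was 9.27-fold higher, the IL-1 receptor antagonist gene Il1rn 3.66-fold and Stat3 2.67-fold. Pim1, a kinase induced by STAT signals, had 473, 527 and 532 CPM in cKO LPS, against 231, 216 and 224 CPM in cKO medium (log2 fold change 1.19 ± 0.11, adjusted p = 4.2e-09). Cebpb, a factor of inflammatory gene expression, had 42.4, 116 and 51.1 CPM in cKO LPS, against 31.03, 60.3 and 107 CPM in cKO medium (log2 fold change 0.08 ± 0.42, adjusted p = 0.89), with overlapping libraries, and did not pass. Its sign depended on the scaling, at -0.41, adjusted p = 0.37 on the TPM scale. Il10 had 22 counts over the LPS libraries and 8 over the medium libraries, a ratio of 4.42 (1.897 to 11.5). It passed the test (log2 fold change 2.09 ± 0.76, adjusted p = 0.02), and the call was lost without the first replicates (adjusted p = 0.097). The call was also lost on the TPM scale (adjusted p = 0.058) and without cKO LPS replicate 2 (adjusted p = 0.15). Its libraries overlapped, at 1.27, 1.87 and 0.154 CPM in cKO LPS, against 0.272, 0.192 and 0.279 CPM in cKO medium.

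Of 21 genes of the tolerogenic list 12 rose and 4 fell, with a median log2 fold change of 0.94, and without the first replicates 10 rose and 3 fell. With TPM values 10 rose and 7 fell. Cd274, the ligand PD-L1 that restrains T cells through PD-1, had 2051, 2064 and 1935 CPM in cKO LPS, against 193, 186 and 133 CPM in cKO medium (log2 fold change 3.56 ± 0.21, adjusted p = 1.9e-10). Hmox1, the haem-degrading oxygenase, had 4409.8, 4309.98 and 4758 CPM in cKO LPS, against 280.2, 423 and 301 CPM in cKO medium (log2 fold change 3.75 ± 0.15, adjusted p = 1.4e-14). Tsc22d3 (GILZ), induced by glucocorticoids, had 171, 174 and 159.5 CPM in cKO LPS, against 36.1, 45.2 and 34.4 CPM in cKO medium (log2 fold change 2.12 ± 0.20, adjusted p = 4.5e-08). Ahr, the aryl hydrocarbon receptor gene, fell by 1.83 on the log2 scale, and Arg1 was at -0.15 ± 0.13 with overlapping libraries but at -0.68, adjusted p = 0.00017 on the TPM scale. Of 19 glucocorticoid receptor targets 12 rose and 5 fell, with the clock gene Per1 at 299.7, 323 and 317 CPM in cKO LPS, against 49.2, 48.6 and 57.4 CPM in cKO medium (log2 fold change 2.60 ± 0.11, adjusted p = 2.3e-14).

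Genes of antigen presentation through MHC class I rose. All 16 class I and immunoproteasome genes rose, with a median log2 fold change of 1.88, with and without the first replicates. Tapbp, the tapasin that loads peptides, had 1606, 1599 and 1574 CPM in cKO LPS, against 272, 263 and 256 CPM in cKO medium (log2 fold change 2.60 ± 0.10, adjusted p = 1.5e-14). Tap1, the peptide transporter, had 754, 685 and 700.05 CPM in cKO LPS, against 95.3, 105 and 102 CPM in cKO medium (log2 fold change 2.82 ± 0.14, adjusted p = 4.6e-13). Nlrc5, the transactivator of class I genes, had 82.04, 99.6 and 94.8 CPM in cKO LPS, against 6.26, 6.16 and 8.66 CPM in cKO medium (log2 fold change 3.71 ± 0.19, adjusted p = 3e-12). Of 15 class II genes 4 rose and 3 fell, with a median log2 fold change of 0.32, shares below those over all genes. On the TPM scale 3 rose and 5 fell, with a median of -0.20. H2-Ab1, a class II chain, had 2080.2, 2181 and 2042 CPM in cKO LPS, against 1724, 1346 and 2125 CPM in cKO medium (log2 fold change 0.28 ± 0.26, adjusted p = 0.36) with overlapping libraries and was at -0.23, adjusted p = 0.42 on the TPM scale. It was called higher without a count filter (0.297, adjusted p = 0.034). The same held with replicate number as a block and only the groups compared (0.348, adjusted p = 0.026). March1, which removes class II from the surface, and the proteases Lgmn and Ctss rose by 1.36, 1.61 and 1.24 on the log2 scale.

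Of 18 costimulatory and inhibitory ligand genes 14 rose and 1 fell, with a median log2 fold change of 1.70, and without the first replicates 13 rose and 1 fell. Cd40, the receptor for T cell help, had 244, 280.3 and 236 CPM in cKO LPS, against 3.27, 2.598 and 3.35 CPM in cKO medium (log2 fold change 6.36 ± 0.70, adjusted p = 3.6e-06). Cd86 had 143, 139 and 134 CPM in cKO LPS, against 47.5, 38.6 and 35.02 CPM in cKO medium (log2 fold change 1.78 ± 0.43, adjusted p = 0.0028). Cd80 had 22.6, 29.8 and 28.6 CPM in cKO LPS, against 13.7, 18.6 and 12.6 CPM in cKO medium (log2 fold change 0.85 ± 0.26, adjusted p = 0.009). Each LPS library of these genes exceeded each medium library, though the Cd80 call was lost on the TPM scale (0.32, adjusted p = 0.28). Lgals9, the gene of the TIM-3 ligand galectin-9, had 1061, 1128 and 1103 CPM in cKO LPS, against 167, 135 and 164 CPM in cKO medium (log2 fold change 2.82 ± 0.12, adjusted p = 3.5e-14). Havcr2, which encodes TIM-3 itself, was low, at 3.45 ± 0.493 CPM in cKO LPS, against 5.02 ± 0.897 CPM in cKO medium (SD, n = 3 each), and did not pass (log2 fold change -0.54 ± 0.53, adjusted p = 0.4). Icam1, an adhesion molecule for T cell contact, rose by 1.58 ± 0.11.

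Of 23 genes of the mature migratory dendritic cell program 14 rose and 3 fell, with a median log2 fold change of 1.55, and without the first replicates 10 rose and 2 fell. Ccr7, the receptor that guides cells to lymph nodes, had 1141, 1285 and 1231 CPM in cKO LPS, against 257, 123 and 168 CPM in cKO medium (log2 fold change 2.74 ± 1.03, adjusted p = 0.034). In WT medium, Ccr7 had 17.2 CPM in replicate 3, and the other 2 libraries had 212 and 216 CPM. That library was also low for Ccl5 (9.17 against 70.3 and 62.9 CPM) and Cd40 (1.01 against 5.60 and 5.06 CPM). The same held for Cd86 (13.7 against 71.2 and 50.3 CPM) and H2-Ab1 (888 against 2273 and 2080 CPM), but not for Isg15 (3.11 against 2.04 and 3.17 CPM). The part of this library in the errors of the shared fit was not tested. Fitted with only the 2 groups compared, Ccr7 was at 2.78, adjusted p = 6.1e-05, and leaving out any 1 of the 6 cKO libraries ended the call (adjusted p 0.052 to 0.097). Il15ra, which presents IL-15, was 19.4-fold and the granzyme inhibitor gene Serpinb9 6.46-fold higher. Adam23 (-3.03) and Anxa3 (-0.85) fell on the log2 scale.

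Of 23 uptake and lectin receptor genes 11 rose and 10 fell, with a median log2 fold change of 0.21. With TPM values 7 rose and 10 fell, with a median of -0.26. Clec10a, a galactose-type lectin, had 16.8, 24.3 and 21.4 CPM in cKO LPS, against 188, 207 and 244 CPM in cKO medium (log2 fold change -3.36 ± 0.18, adjusted p = 1.3e-11). Cd209a, a lectin close to DC-SIGN, had 0 counts in cKO LPS and 80 in cKO medium, at least 16.6-fold lower against the floor of 3 counts. Fcgr1, the high-affinity IgG receptor, had 217, 220.5 and 210.1 CPM in cKO LPS, against 12.5, 21.1 and 19.3 CPM in cKO medium (log2 fold change 3.61 ± 0.21, adjusted p = 1.5e-10), and the sialic acid lectin gene Siglec1 had 41.9, 36.8 and 54.3 CPM in cKO LPS, against 0.454, 0.7697 and 1.96 CPM in cKO medium (log2 fold change 5.37 ± 0.35, adjusted p = 1.8e-09).

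**Figure D3:**
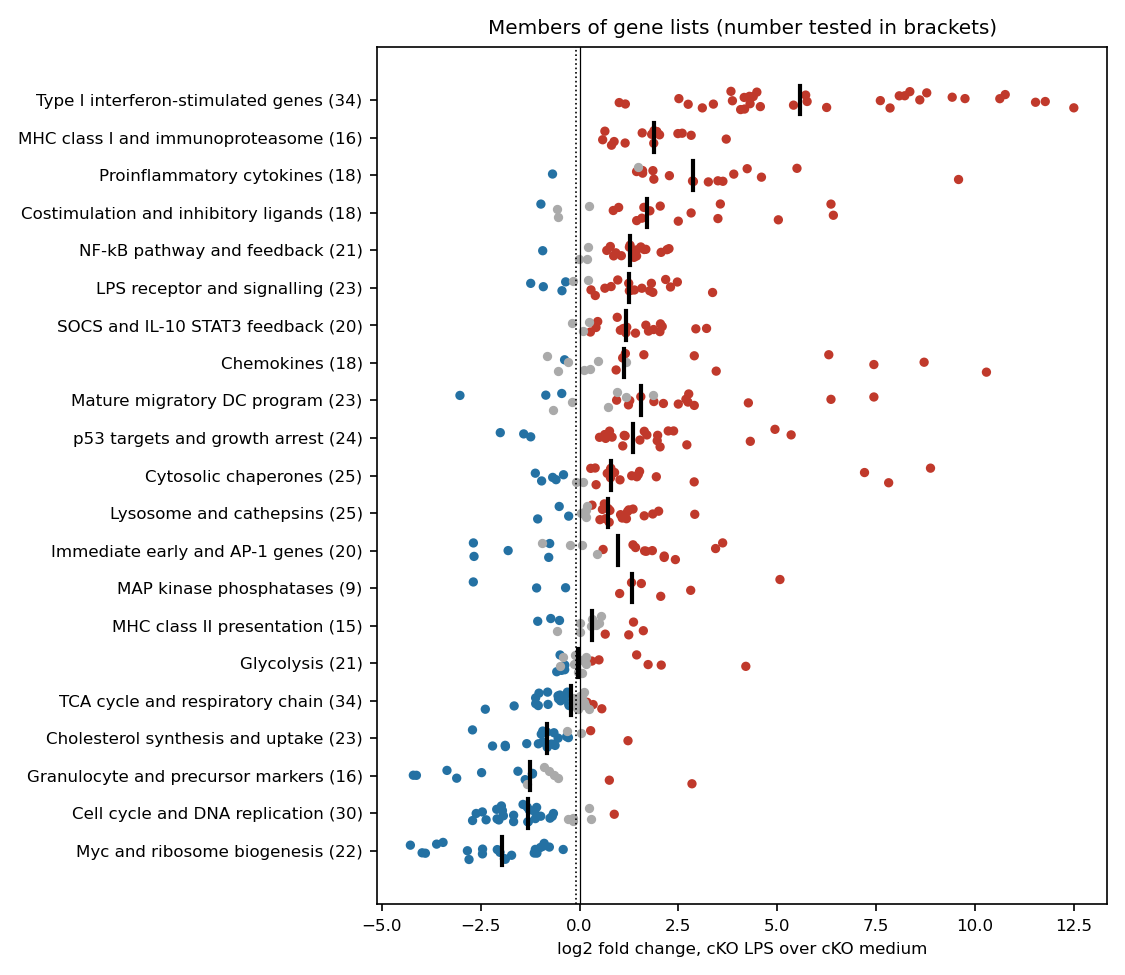
Log2 fold change of cKO LPS over cKO medium for the tested members of 21 gene lists; each point is a gene, red called higher, blue called lower, grey not called, the bar is the list's median and the dotted line the median of all genes. The interferon-stimulated list lies wholly to the right, with a median of 5.57, and the Myc and ribosome biogenesis list wholly to the left, with a median of -1.96.

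Several genes of nitric oxide synthesis, arginine use and itaconate synthesis rose, while the arginase gene Arg1 did not pass (-0.15 ± 0.13 in log2). Nos2, the inducible nitric oxide synthase, had 2494, 2266 and 2456 CPM in cKO LPS, against 68.7, 103 and 63.5 CPM in cKO medium (log2 fold change 4.94 ± 0.25, adjusted p = 6e-11). Slc7a2, which imports its substrate arginine, was 5.15-fold higher. Irg1, the enzyme that makes itaconate, had 2208, 2039 and 2269 CPM in cKO LPS, against 220.1, 228 and 167 CPM in cKO medium (log2 fold change 3.41 ± 0.19, adjusted p = 4.1e-11). The mitochondrial superoxide dismutase gene Sod2 was 5.07-fold and Arg2 6.41-fold higher. Eicosanoid genes moved in both directions, with the inducible cyclooxygenase gene Ptgs2 at 6.74 and Alox5ap, the partner of 5-lipoxygenase, at -0.75 in log2, both called. Over the 20 genes of immune effector metabolism 11 rose and 4 fell, and on the TPM scale 10 rose and 8 fell.

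Of 21 glycolysis genes, 6 rose and 5 fell, with a median log2 fold change of -0.03, shares below those over all genes. The median was 0.03 with RLE factors and 0.05 without the first replicates, and on the TPM scale 4 rose and 14 fell, with a median of -0.53. Slc2a1, the glucose transporter GLUT1, had 1082, 919 and 1059.5 CPM in cKO LPS, against 248, 247 and 236 CPM in cKO medium (log2 fold change 2.07 ± 0.12, adjusted p = 5e-12). Pfkfb3, which makes the activator of phosphofructokinase, had 359, 357 and 349 CPM in cKO LPS, against 19.8, 23.7 and 14.2 CPM in cKO medium (log2 fold change 4.20 ± 0.18, adjusted p = 3.5e-13). Hk2, a hexokinase, had 236, 209.9 and 218 CPM in cKO LPS, against 65.9, 73.03 and 60.9 CPM in cKO medium (log2 fold change 1.73 ± 0.11, adjusted p = 1.3e-11). Against these, Gpi1, Eno1 and Pkm fell (log2 fold change -0.46, -0.38 and -0.37), and Gapdh was at 0.49 ± 0.13 here and at -0.01, adjusted p = 0.93 on the TPM scale. Of 34 genes of the TCA cycle and respiratory chain 3 rose and 17 fell, with a median log2 fold change of -0.22, and on the TPM scale 0 rose and 32 fell, and without the first replicates 2 rose and 15 fell. Idh1, the cytosolic isocitrate dehydrogenase, had 172, 114 and 137 CPM in cKO LPS, against 497, 398 and 435 CPM in cKO medium (log2 fold change -1.65 ± 0.12, adjusted p = 2.7e-10). Idh2, Fh1 and Suclg1 fell (log2 fold change -1.11, -1.04 and -1.03).

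Most genes of cholesterol synthesis fell. Of 23 cholesterol synthesis and uptake genes 2 rose and 19 fell, with a median log2 fold change of -0.82, and without the first replicates 1 rose and 16 fell. Lss, lanosterol synthase, had 14.1, 11.2 and 15.8 CPM in cKO LPS, against 51.2, 43.7 and 57.1 CPM in cKO medium (log2 fold change -1.88 ± 0.14, adjusted p = 2.3e-10). Cyp51 had 26.5, 32.1 and 27.5 CPM in cKO LPS, against 75.3, 69.2 and 72.7 CPM in cKO medium (log2 fold change -1.34 ± 0.11, adjusted p = 7.9e-10). Hmgcs1 had 59.1, 64.1 and 70.5 CPM in cKO LPS, against 119, 116 and 119 CPM in cKO medium (log2 fold change -0.87 ± 0.21, adjusted p = 0.0019). Hsd17b7, a later step of the pathway, fell by 2.20 on the log2 scale. The exporter gene Abca1 had 105, 89.2 and 80.6 CPM in cKO LPS, against 13.3, 18.4 and 15.8 CPM in cKO medium (log2 fold change 2.53 ± 0.17, adjusted p = 2.6e-10), and Abcg1 rose by 1.68 and the lysosomal cholesterol carrier gene Npc2 by 1.96. Over 17 cholesterol efflux and LXR target genes 9 rose and 6 fell, with a median log2 fold change of 0.34. On the TPM scale 5 rose and 9 fell, with a median of -0.19. Pparg fell to 7.82 ± 1.92 CPM in cKO LPS, against 36.9 ± 4.77 CPM in cKO medium (SD, n = 3 each), and Hilpda, a lipid droplet protein, rose 8.57-fold. Of 17 PPARG and lipid storage genes 6 rose and 5 fell, shares near those over all genes, with a median log2 fold change of 0.21. With TPM values 5 rose and 9 fell, with a median of -0.31.

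Genes of ribosome production and of the cell cycle mostly fell. All 22 genes of the Myc and ribosome biogenesis list fell (median log2 fold change -1.96), 21 of them without the first replicates. Myc had 6.51, 4.05 and 6.77 CPM in cKO LPS, against 70.4, 73.7 and 69.4 CPM in cKO medium (log2 fold change -3.62 ± 0.21, adjusted p = 3.3e-11). Wdr12, a 60S assembly factor, had 1.98, 1.87 and 0.461 CPM in cKO LPS, against 17.6, 16.8 and 13.5 CPM in cKO medium (log2 fold change -3.45 ± 0.32, adjusted p = 6.6e-09). Polr1b, a subunit of RNA polymerase I, had 9 counts in cKO LPS and 235 in cKO medium. Of 30 cell cycle and replication genes 1 rose and 24 fell, with a median log2 fold change of -1.30. Birc5, the mitotic protein survivin, had 11.5, 12.2 and 11.4 CPM in cKO LPS, against 69.9, 73.2 and 71.4 CPM in cKO medium (log2 fold change -2.61 ± 0.16, adjusted p = 1.2e-11). Cdk1 had 31.8, 29.6 and 33.1 CPM in cKO LPS, against 107, 111 and 82.8 CPM in cKO medium (log2 fold change -1.67 ± 0.14, adjusted p = 1.2e-09). Ccnb2 and Tk1 fell (log2 fold change -2.10 and -1.93), and Mki67 (-0.18) and Pcna (-0.18) did not pass.

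Of 24 p53 target and growth arrest genes 21 rose and 3 fell, with a median log2 fold change of 1.34. Cdkn1a, the CDK inhibitor p21, had 2284, 2233 and 2245 CPM in cKO LPS, against 762, 626 and 691 CPM in cKO medium (log2 fold change 1.70 ± 0.12, adjusted p = 1.7e-10). Ddit4, an inhibitor of mTORC1, had 116, 117 and 117 CPM in cKO LPS, against 4.17, 3.75 and 3.45 CPM in cKO medium (log2 fold change 4.94 ± 0.15, adjusted p = 1.4e-16). Zmat3 rose 2.88-fold. Of 15 BCL-2 family genes 10 rose and 3 fell, with a median log2 fold change of 0.84 (7 rose and 5 fell on the TPM scale), and the survival genes Mcl1 and Bcl2l1 were 2.75-fold and 2.26-fold higher while Bcl2 fell by 2.32. Bcl2a1b and Bcl2a1d belong to a family of near-identical copies and their values are uncertain.

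Of 25 cytosolic chaperone genes, 18 rose and 5 fell, with a median log2 fold change of 0.78. Their summed level was 12954 to 14095 CPM in cKO LPS, against 7196 to 7777 CPM in cKO medium. Hsph1, an HSP70 exchange factor, had 222, 252 and 258 CPM in cKO LPS, against 34.1, 27.9 and 36.04 CPM in cKO medium (log2 fold change 2.90 ± 0.17, adjusted p = 3.2e-11). Dnaja1, an HSP70 cofactor, had 509.9, 568 and 541 CPM in cKO LPS, against 211, 168 and 186 CPM in cKO medium (log2 fold change 1.52 ± 0.11, adjusted p = 1.7e-10), and Dnajb6 rose by 1.49. The heat shock gene Hspa1b had 1565 counts in cKO LPS and 5 in cKO medium, and shares reads with the near-identical Hspa1a. The small chaperone gene Hspb1 had 315 and 3 counts, a ratio of 169 (57.3 to 824). Hsf1, the heat shock factor gene, fell by 1.12.

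Of 25 genes of endoplasmic reticulum folding and stress 11 rose and 4 fell, with a median log2 fold change of 0.20. The balance depended on the scaling: 10 rose and 7 fell with upper-quartile factors, and 2 rose and 13 fell on the TPM scale, with a median of -0.32. Xbp1, a factor of the unfolded protein response, had 342, 336 and 329 CPM in cKO LPS, against 746, 620.2 and 685 CPM in cKO medium (log2 fold change -1.03 ± 0.09, adjusted p = 2.1e-09), while Ern1, the sensor IRE1 that splices it, had 30.4, 29.5 and 22.5 CPM in cKO LPS, against 4.99, 3.46 and 3.35 CPM in cKO medium (log2 fold change 2.80 ± 0.18, adjusted p = 4.3e-11). Hspa5, the chaperone BiP, had 1259, 1309 and 1103 CPM in cKO LPS, against 897, 639 and 565 CPM in cKO medium (log2 fold change 0.81 ± 0.14, adjusted p = 5.8e-05), a call lost on the TPM scale (0.30, adjusted p = 0.057). Of 26 genes of the ATF4 stress response 9 rose and 10 fell, shares near those over all genes, and on the TPM scale 7 rose and 15 fell. Ddit3 (CHOP) had 62.9, 62.7 and 60.8 CPM in cKO LPS, against 8.98, 7.41 and 6.98 CPM in cKO medium (log2 fold change 2.99 ± 0.23, adjusted p = 2.3e-09). Atf4 itself had 252, 244 and 252 CPM in cKO LPS, against 130.5, 138 and 129 CPM in cKO medium (log2 fold change 0.91 ± 0.09, adjusted p = 1.8e-08). The serine and glycine pathway gene Shmt2 (-2.88), the asparagine synthetase gene Asns (-3.21) and the amino acid transporter gene Slc7a5 (-2.88) fell on the log2 scale.

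Of 16 genes of BAG6 and tail-anchored protein insertion, Bag6 included, 4 rose and 6 fell, with a median log2 fold change of -0.28, shares near those over all genes. With upper-quartile factors 1 rose and 9 fell, on the TPM scale 0 rose and 14 fell, and without the first replicates 2 rose and 5 fell. Wrb, the receptor of the insertion pathway, had 3.54, 3.27 and 2.15 CPM in cKO LPS, against 8.08, 9.04 and 10.2 CPM in cKO medium (log2 fold change -1.60 ± 0.23, adjusted p = 2.8e-06). Ubl4, which binds Bag6, had 28.1, 31.3 and 30.8 CPM in cKO LPS, against 46.3, 41.2 and 51.4 CPM in cKO medium (log2 fold change -0.62 ± 0.12, adjusted p = 0.00016). Emc6, of the membrane complex, had 14.99, 16.99 and 17.5 CPM in cKO LPS, against 44.9, 44.4 and 46.8 CPM in cKO medium (log2 fold change -1.46 ± 0.11, adjusted p = 2.7e-10). Sgta, the co-chaperone that feeds Bag6, was at 0.32 ± 0.08 here but at -0.20, adjusted p = 0.026 on the TPM scale.

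Among the 6 called genes with the most counts in cKO LPS were genes of iron storage, lysosomal proteolysis and peroxide removal. Fth1, the ferritin heavy chain, had 53619, 53846 and 55152 CPM in cKO LPS, against 12791, 9579.6 and 10881 CPM in cKO medium (log2 fold change 2.29 ± 0.12, adjusted p = 1.5e-12). Ctsd, a lysosomal protease, had 8771, 8325 and 8108 CPM in cKO LPS, against 3521, 3123 and 3226 CPM in cKO medium (log2 fold change 1.35 ± 0.11, adjusted p = 9e-10), and the peroxidase gene Prdx1 had 11534, 10319.9 and 10004 CPM in cKO LPS, against 3549, 1974 and 2271 CPM in cKO medium (log2 fold change 2.03 ± 0.17, adjusted p = 2.9e-09). These values count reads and are not a level per length. Of 25 lysosome and cathepsin genes 18 rose and 3 fell, with a median log2 fold change of 0.72. With TPM values 10 rose and 6 fell, and without the first replicates 18 rose and 1 fell. Gla was 7.54-fold and Ctsz 3.11-fold higher. Of 15 iron genes 9 rose and 4 fell (9 rose and 2 fell without the first replicates), with the importer Slc11a2 (DMT1) at log2 fold change 2.63 ± 0.16, adjusted p = 4.9e-11 and the iron oxidase Cp at log2 fold change 2.86 ± 0.26, adjusted p = 5.7e-09, and with the transferrin receptor gene Tfrc lower, at -0.98 in log2. Of 19 matrix and protease genes 8 rose and 7 fell, with a median log2 fold change of 0.20. On the TPM scale 6 rose and 10 fell, with a median of -0.32, and without the first replicates 7 rose and 5 fell. The protease inhibitor gene Timp1 was 6.94-fold higher, Plau, urokinase, 4.59-fold, and the fibronectin gene Fn1 fell by 1.66.

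Markers of cell types moved with LPS as follows, and their part in the other results was not tested. The sorted marker gene Itgax (CD11c) had 578, 469.9 and 545 CPM in cKO LPS, against 817, 701 and 912 CPM in cKO medium (log2 fold change -0.61 ± 0.13, adjusted p = 0.00031). Of 16 dendritic cell markers 4 rose and 4 fell, shares below those over all genes (2 rose and 7 fell on the TPM scale). Of 16 macrophage and monocyte markers 6 rose and 8 fell, with the monocyte chemokine receptor gene Ccr2 at 32.8, 33.99 and 42.1 CPM in cKO LPS, against 396, 425 and 399.9 CPM in cKO medium (log2 fold change -3.49 ± 0.18, adjusted p = 8.7e-12) and Ly6c2 4.12-fold higher. Of 16 granulocyte and precursor markers 2 rose and 9 fell, with a median log2 fold change of -1.26, and without the first replicates 1 rose and 5 fell. Levels within the list differed, with Prtn3 at 1.44 ± 0.231 CPM in cKO LPS, against 8.12 ± 4.03 CPM in cKO medium (SD, n = 3 each). Mmp8 fell to 412 ± 80.1 CPM in cKO LPS, against 941 ± 329 CPM in cKO medium. Lcn2 rose to 1259 ± 324 CPM in cKO LPS, against 175 ± 109 CPM in cKO medium. The summed level of the list was 2156 to 3803 CPM in cKO LPS, against 1702 to 4285 CPM in cKO medium. Of 9 tested mast cell and basophil markers 1 rose and 2 fell (1 and 0 without the first replicates), with the histidine decarboxylase gene Hdc 12.9-fold higher. No lymphocyte marker could be tested, with summed levels of 0.9901 to 1.25 CPM in cKO LPS, against 1.73 to 2.72 CPM in cKO medium, and 4 of 13 were at 0 in all 6 libraries. Of 5 sex-linked genes 0 passed in the fit of all libraries, with Uty at 1.28 ± 0.86 and Ddx3y at 0.48 ± 0.94 in log2, and 2 were called higher without the first replicates. In bulk libraries, fewer cells of a type and less RNA per cell cannot be told apart.

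The LPS response of WT cells was called for 3537 higher genes (29.8%) and 3432 lower genes (28.9%). Of the genes called in cKO cells, 5410 were called in WT in the same direction, 153 in the opposite direction, and 2051 were not called in WT. The responses were compared directly as a genotype by LPS interaction, in which a positive value means a more positive log2 change in cKO cells. It set cKO groups that each held a female-pattern library against WT groups with the male pattern only. The part of sex in the interaction was not tested. The interaction was called for 870 genes with a more positive change in cKO cells (7.33%) and 1200 with a more negative one (10.1%), 1268 genes in all without the first replicates. On the TPM scale it was called for 419 and 2890, and with RLE factors for 1111 and 901. Of the interaction genes that rose in cKO cells, 644 had a more positive change than in WT and 83 a less positive one. Of those that fell, 892 had a more negative change than in WT and 58 a less negative one. These counts set no condition on the WT response, and 153 interaction genes were called in opposite directions in cKO and WT cells.

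Several immediate-early genes differed between cKO and WT cells in their response. Egr1, which fell in cKO cells, had 164, 202 and 137 CPM in WT LPS, against 118, 94.9 and 89.5 CPM in WT medium, and the interaction was -3.40 ± 0.25, adjusted p = 5.9e-07. Ier2 had 91.5, 79.9 and 84.1 CPM in WT LPS, against 48.2, 82.2 and 76.2 CPM in WT medium (interaction -2.99 ± 0.27, adjusted p = 3e-06), and Fosb had 21.3, 23.2 and 14.1 CPM in WT LPS, against 3.23, 0.6003 and 1.51 CPM in WT medium (interaction -3.69 ± 0.52, adjusted p = 0.00028). In medium each cKO library of these 3 genes was above each WT library. Klf2, a Krüppel-like factor, and Nr4a1, an orphan nuclear receptor, fell in cKO cells, with interactions of -3.36 ± 0.53, adjusted p = 0.00077 and -2.92 ± 0.36, adjusted p = 0.00016. Of 20 immediate-early and AP-1 genes 7 had a more negative and 3 a more positive response in cKO cells.

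Tnf rose further in cKO cells, with 87.7, 90.1 and 81.3 CPM in WT LPS, against 46.3, 44.5 and 36.8 CPM in WT medium and an interaction of 1.25 ± 0.22, adjusted p = 0.0011. Tlr4 had 169, 127 and 153 CPM in WT LPS, against 178, 166 and 165 CPM in WT medium, and its interaction was -1.05 ± 0.15, adjusted p = 0.00021. Slc2a1 had 417, 282 and 359 CPM in WT LPS, against 195, 199.7 and 205 CPM in WT medium (interaction 1.25 ± 0.16, adjusted p = 6.8e-05). Ccl4 (-1.13 ± 0.18, adjusted p = 0.00038), Tnfaip3 (-1.17 ± 0.18, adjusted p = 0.00036) and Ccl3 (-0.52 ± 0.16, adjusted p = 0.026) had a smaller log2 rise in cKO cells. The Ccl3 call was lost with RLE factors (-0.45, adjusted p = 0.059). In medium, cKO means exceeded WT means: 319.8 against 144.6 CPM (Ccl3), 210.3 against 86.9 CPM (Ccl4) and 211.8 against 108.4 CPM (Tnfaip3). With LPS, mean Ccl3 was 988 CPM in cKO against 640.4 CPM in WT. Ccl4 (399 against 360.7 CPM) and Tnfaip3 (341.2 against 391.8 CPM) had overlapping cKO LPS and WT LPS libraries. These differences in level were not tested. Of 40 readout genes, which span Bag6, cytokines, costimulation, signalling, stress and lipid genes, 32 rose and 4 fell with LPS in cKO cells, and 10 differed in the interaction. Over all genes tested, 29.3% rose, 34.8% fell and 17.4% differed in the interaction. The readout genes were chosen with earlier results of these data known.

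Of 25 chaperone genes, 9 had a more positive response in cKO cells and 0 a more negative one. Interaction counts of lists are those with TMM factors and were not recomputed with other scalings. In WT cells 11 rose and 6 fell. Hspa1b had 4.699, 13.1 and 7.94 CPM in WT LPS, against 0.509, 0.172 and 0.252 CPM in WT medium (interaction 4.15 ± 1.38, adjusted p = 0.049), a value that rests on few counts in medium and whose call was lost without the first replicates (4.98, adjusted p = 0.061). Gadd45g, a growth arrest gene, had 30.9, 52.3 and 41.04 CPM in WT LPS, against 13.1, 13.98 and 12.5 CPM in WT medium (interaction 2.67 ± 0.28, adjusted p = 1.5e-05). Qpct, the glutaminyl cyclase gene, had 22.9, 25.1 and 26.1 CPM in cKO LPS, against 15.4, 9.14 and 12.2 CPM in cKO medium. In WT cells it went the opposite way, with 10.97, 14.8 and 9.598 CPM in WT LPS, against 33.6, 29.8 and 39.2 CPM in WT medium (interaction 2.55 ± 0.30, adjusted p = 2e-05), and Rab3il1 rose in cKO cells, a call lost on the TPM scale (0.15, adjusted p = 0.37), and fell in WT cells (interaction 2.02 ± 0.23, adjusted p = 1.2e-05). The granulocyte list held 4 more negative and 0 more positive responses in cKO cells, beside 4 rises and 0 falls in WT cells. Of 34 interferon-stimulated genes, 8 were more positive in cKO cells and 0 more negative, with all 34 called higher in WT cells as well.

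**Figure D4:**
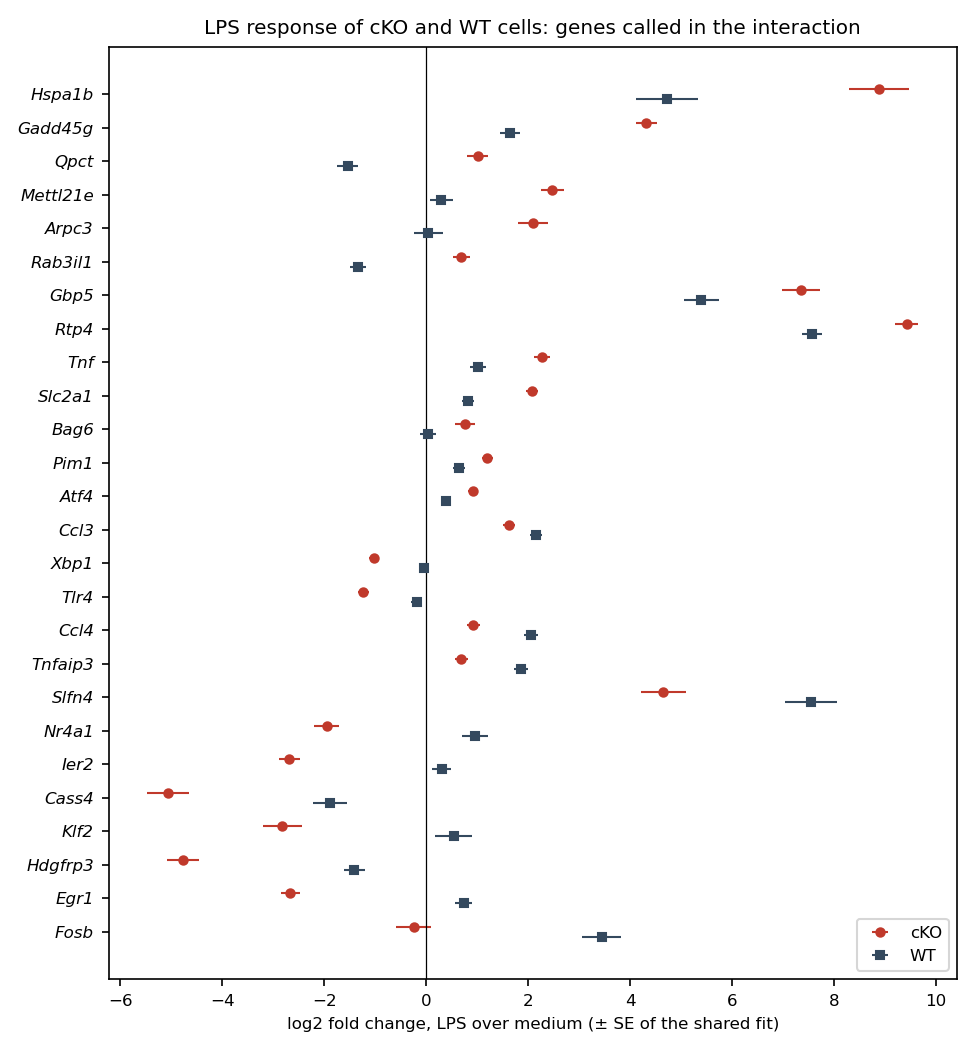
Log2 fold change of LPS over medium in cKO cells (red circles) and WT cells (dark squares), with the standard error of the shared fit (n = 3 libraries per group), for 26 genes called in the interaction. They are those called among Bag6, the readout genes and the largest interactions, and other named genes that were called are not drawn. Egr1, Klf2, Ier2 and Nr4a1 lie left of 0 in cKO cells and right of 0 in WT cells, and Qpct and Rab3il1 the other way round.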

How the data were processed

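RNA sequencing libraries of sorted mouse bone-marrow-derived dendritic cells were compared by group labels taken from the sample titles, 3 libraries per group. Per the labels' protocols, Illumina TruSeq libraries were made from total RNA. Per the file headers, the deposited values are expected counts and TPM per gene. RSEM, bcl2fastq and mm10 are named, without versions, per the submitters' processing notes. The labels mention 5 replicates in one place and triplicates in another, and the aligners and tests named in the design text were not used here. Whether counting used strand is not given in the sources used here; antisense and overlapping genes cannot be separated, and near-identical copies are uncertain.

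The expected counts were first rounded. Filtering with filterByExpr left 11876 of 23420 genes, library sizes were scaled by TMM, and all 6 groups were fitted with edgeR 4.0.16 (limma 3.58.1, R 4.3.3), robust quasi-likelihood F-tests, without covariates. P-values were adjusted by Benjamini-Hochberg over all 11876 genes and called under 0.05. Totals were 8056831 to 12068759 counts. Replicate pairs differed by more than sampling noise (chi-square per degree of freedom 3.64 to 36.3). Intervals for genes with few counts reflect counting error alone. Promoter windows came from RefSeq.

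Named genes were Bag6, the 10 largest rises and 10 largest falls averaging 3 or more in log2 CPM without overlapping groups, up to 4 called members of each of the 38 lists (2 where none was called), 40 readout genes, the 8 largest interactions each way and the 6 called genes with the most counts. Other list members named beside them were chosen for their role after their values were seen. Members and lists were chosen with earlier results of these data known. Alternatives included RLE and upper-quartile factors, DESeq2 1.42.0, other count filters, replicate blocks, TPM with limma and left-out libraries. The procedure was tested on simulated data. Some genes the rule names are not reported here.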

Additional observations from a re-analysis of the deposited data

Results flagged for a closer look

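The LPS response differed between cKO and WT cells for 2070 genes, as tested by the genotype by LPS interaction of edgeR, and 26 named genes were among them. For Bag6 and Fosb the LPS and medium libraries of cKO cells overlapped. The Bag6 interaction call was lost when any 1 WT LPS or WT medium library was left out (adjusted p 0.06 to 0.083). Values below are the log2 response of cKO cells minus that of WT cells.

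The response was more positive in cKO cells for Hspa1b (4.15), Gadd45g (2.67), Qpct (2.55), Mettl21e (2.17), the actin-nucleating subunit gene Arpc3 (2.04), Rab3il1 (2.02), the guanylate-binding protein gene Gbp5 (1.96), the interferon-stimulated gene Rtp4 (1.86), Tnf (1.25), Slc2a1 (1.25), Bag6 (0.72), Pim1 (0.55) and Atf4 (0.53). Mettl21e had 44.4, 66.9 and 65.2 CPM in cKO LPS, against 6.44, 11.2 and 14.2 CPM in cKO medium, and Arpc3 had 97.7, 160.1 and 112 CPM in cKO LPS, against 20.9, 44.8 and 21.5 CPM in cKO medium.

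The response was more negative in cKO cells for Fosb (-3.69), Egr1 (-3.40), Klf2 (-3.36), Hdgfrp3 (-3.36), Cass4 (-3.18), Ier2 (-2.99), Nr4a1 (-2.92), the Schlafen gene Slfn4 (-2.90), Tnfaip3 (-1.17), Ccl4 (-1.13), Tlr4 (-1.05), Xbp1 (-0.97) and Ccl3 (-0.52). Egr1 and Nr4a1 fell in cKO cells and rose in WT cells. Klf2 and Ier2 fell in cKO cells and did not pass in WT cells, and Fosb rose in WT cells and did not pass in cKO cells. Slfn4 had 222, 285 and 233 CPM in cKO LPS, against 10.2, 13.8 and 5.59 CPM in cKO medium, and in WT cells it had 863, 420 and 853 CPM in WT LPS, against 5.604, 4.37 and 1.43 CPM in WT medium. No explanation of these differences was tested.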

How the results depend on the processing

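Of 3605 values of the LPS response of 201 named genes in cKO cells under the alternatives, 3535 kept direction and side of the threshold, 44 lost the call, 12 gained it and 14 changed sign; 183 genes kept both throughout. The count of genes called in cKO cells (7614) was 6782 to 8797 under other scalings, filters, tools and samples, and 3852 with a 2-fold minimum, which by construction calls fewer genes. In WT cells the 2-fold minimum left 2961. The interaction count (2070) was 3309 with TPM + 1, 3403 with TPM + 0.1, 1268 without replicate 1 of cKO LPS and cKO medium and 732 with the 2-fold minimum. Leaving out 1 library gave 7074 to 7410 genes in cKO cells, 6296 to 6731 in WT cells and 1465 to 2307 for the interaction. Values that changed sign on the TPM + 1 and TPM + 0.1 scales were Sgta (-0.202 and -0.205), Cebpb (-0.415 and -0.421), H2-Ab1 (-0.227 on both) and Gapdh (-0.0149 on both). Cebpb was also -0.0897 with upper-quartile factors, -0.00299 without the first replicates, and -0.471 to 0.609 without single libraries (negative without cKO LPS replicate 2 and without cKO medium replicate 1, at -0.265). Ddx3y was -0.0243 with TPM + 1 and -0.103 (without cKO medium replicate 1) to 1.11 (without cKO LPS replicate 1) with a library left out. List medians that changed sign with TPM + 1 were those of MHC class II (-0.202), uptake and lectin receptors (-0.256), cholesterol efflux (-0.189), PPARG and lipid storage (-0.311), endoplasmic reticulum (-0.323), matrix (-0.324) and sex-linked genes (-0.0243). The glycolysis median was 0.0326 with RLE factors and 0.0456 without the first replicates. The cause of these changes was not tested. With replicate number as a block the counts were 7623 in cKO cells, 7035 in WT cells and 2141 for the interaction, and with the block and only the groups compared 7300, 6212 and 1524. Same-numbered cKO libraries deviated together with correlations of 0.219, 0.0341 and 0.261, not all above 0.1, so the numbers were not taken to pair the libraries, although each of the 3 correlated best with its own number. Of 624 interaction values of 26 genes, 573 kept direction and call and 51, in Bag6, Ccl3, Pim1, Atf4, Hspa1b and Gbp5, lost the call. Genes with few counts in 1 group, such as Hspa1b, Il10 and Hamp, are limited by depth.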
